A study of Mus musculus with 6 samples.

Results

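The BCL2 family controls whether the outer membrane of the mitochondria is opened during apoptosis. BAX and BAK1 are the effectors that form the pores through which cytochrome c escapes. The BH3-only proteins BBC3 (PUMA), PMAIP1 (NOXA), BID and BCL2L11 (BIM) respond to damage or to lost survival signals and set the effectors free, whereas the guardians BCL2, BCL2L1 (BCL-XL), MCL1 and BCL2L2 (BCL-W) restrain both. In the testis, mice without *Bax* accumulate immature germ cells and make no mature sperm, and mice without *Bcl2l2* lose germ cells and later Sertoli cells. The genes described here are these 10, taken as every probe whose symbol in the deposited intensity table was one of them in any letter case. They had 31 of the 45281 probes of the array and 10 of its 31490 symbols.

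Primary Sertoli cells, the somatic cells that nurse the germ cells in the seminiferous tubule, came from C57BL/6J mice at 3 weeks of age. Both groups carried the floxed allele on both chromosomes (*Ctnnb1* tm1Mmt/tm1Mmt), from which Cre recombinase makes a CTNNB1 protein that escapes degradation. The virus encoded Cre in 3 samples (Ad-Cre) and eGFP in 3 control samples (Ad-eGFP). It was added at an MOI of about 50 once the cultures, at first in 10% fetal calf serum, were 2 days old. RNA was taken 24 h later, a period spent without serum, and each RNA sample was read on 1 Illumina mouse BeadChip array. Tubules were pooled before the cells were plated and the labels do not call the RNA samples separate cultures, so that p-values measure the spread between these samples, which may be technical. No Ad-Cre array came from cells without the floxed allele, and effects of altered CTNNB1, of Cre itself and of the difference in virus cannot be told apart. In RNA from a whole culture, fewer cells of a type and less RNA per cell cannot be told apart either.

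Values are log2 intensities after background correction and quantile normalization, listed as replicates 1, 2 and 3. A probe was tested when its detection p was under 0.05 on at least 3 of the 6 arrays. The arrays had median raw signals of 129 to 137 and detected 20288 to 20901 probes each, and the tested BCL2 family probes were read from 18 to 64 beads per array, a number that limits their precision. Ad-Cre replicate 3 stood apart from its group. Its root mean square deviation from the Ad-Cre mean over all tested probes was 0.18 (log2), against 0.15 and 0.13 for Ad-Cre replicates 1 and 2 and 0.12 for each Ad-eGFP array, and its estimated quality weight of 0.285 was the lowest of the 6. Values without that array are given wherever it decides a result for a BCL2 family probe. As a check of the labels, the eGFP probe read 13.18, 13.14 and 12.72 with Ad-Cre and 14.99, 15.01 and 14.79 with Ad-eGFP. It was thus brighter on all 3 arrays labelled Ad-eGFP, but it was also detected on all 3 Ad-Cre arrays, with raw signals from 7215, and the source of that signal was not tested. The probes of *Ctnnb1* differed in direction, with log2 changes of 0.22 and 0.30 for those under the current symbol and of -0.39 for probe 2030553 under the older symbol Catnb.

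In cells given Ad-Cre, transcripts of the BH3-only gene *Bbc3* and of the effector *Bak1* were higher and those of the guardian *Bcl2* were lower than in cells given Ad-eGFP. The *Bbc3* calls held without each array in turn, whereas those of *Bak1* and *Bcl2* were lost in some of these fits. *Bak1* rested on 1 dim probe and *Bcl2* on 2 of its 4 tested probes. Of the 31 probes of the family 20 were tested, and all 10 genes had at least 1 tested probe. An adjusted p under 0.05 (limma, Benjamini-Hochberg over all tested probes) was reached by 5 of these 20 probes, or 25.0%, where 22.9% of all 20855 tested probes reached it. In this fit the share in the family was near the background, and it is not read as a result about the family as a whole. Of the 5 probes, 3 were higher with Ad-Cre (background 10.7% of all tested probes) and 2 were lower (background 12.2%). With each gene represented by its brightest tested probe, 2 genes were higher, 1 was lower and 7 did not pass. The median log2 change over the 20 probes was 0.19, and that over all tested probes was 0.00. Leaving out Ad-Cre replicate 1 gave a median of 0.09 and leaving out Ad-Cre replicate 2 gave 0.10. It was 0.08 with a larger offset and 0.06 with all probes tested, the lowest over the alternatives, and at most 0.21. The 3 Ad-Cre values and the 3 Ad-eGFP values did not overlap for 8 of the 20 probes, a share near the 42.0% of all tested probes. Both probes that passed an unadjusted p under 0.05 together with a change of at least 1.5-fold belonged to *Bbc3*, and 8.22% of all tested probes met that rule. Without Ad-Cre replicate 3 the count was 8 probes in place of 5, which included the same 5, and without Ad-eGFP replicates 2 or 3 it was 3 and 2. The share of all tested probes called moved the same way, to 27.2%, 13.5% and 11.9%. In other fits the shares parted: 5 of 20 family probes stood beside 14.2% without Ad-eGFP replicate 1 and 5 of 31 beside 8.45% with all probes tested, whereas 4 of 20 stood beside 27.6% without background correction and 3 of 15 beside 29.5% with the strictest filter. The difference between family and background was not tested.

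**Figure D1:**
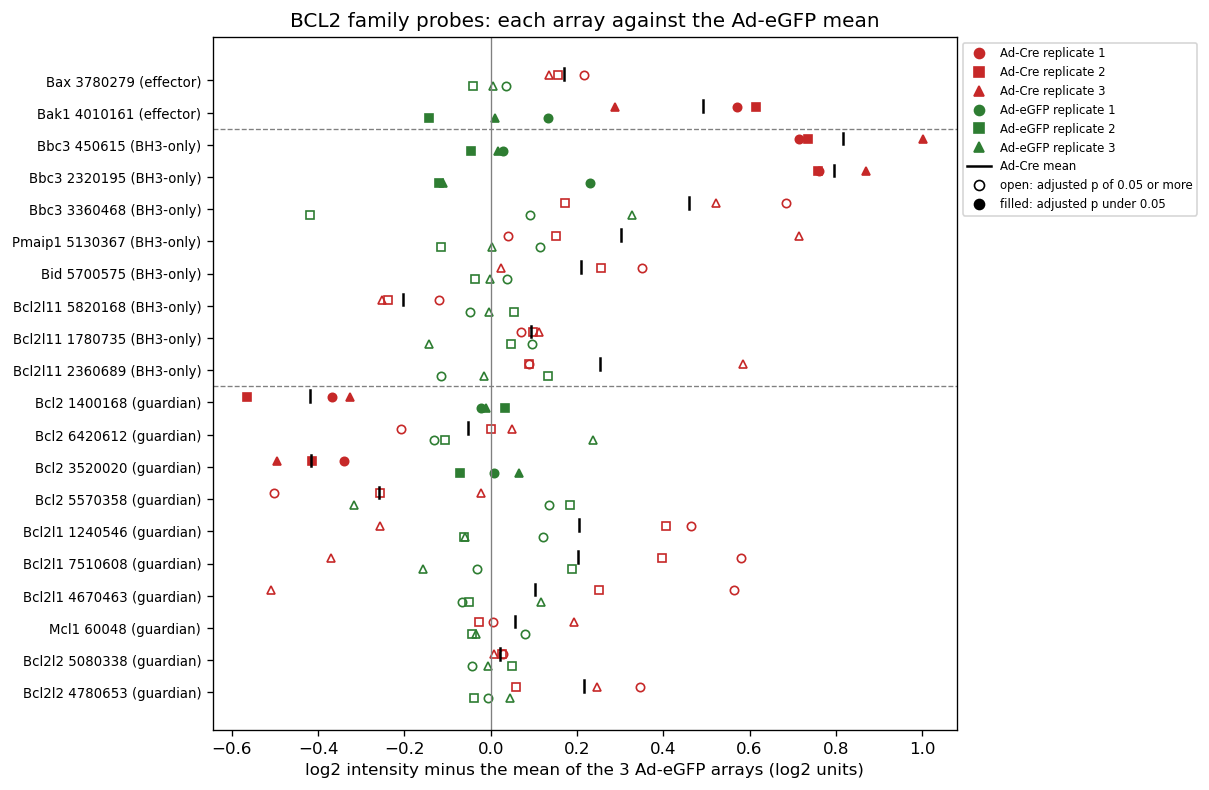
Each point is 1 array: the log2 intensity of a tested BCL2 family probe minus the mean of the 3 Ad-eGFP arrays for that probe (x axis, log2 units), with 1 line per probe (y axis) ordered by role. Black bars mark the Ad-Cre mean, filled points mark an adjusted p under 0.05, and shapes mark the replicates; the *Bbc3* probe 450615 has its Ad-Cre mean 0.82 above zero, and for *Bcl2l1* the Ad-Cre points spread to both sides of the Ad-eGFP points.

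The effectors come first in order of role. *Bax*, whose product moves from the cytosol to the mitochondria when activated, had 1 probe, which read 11.84, 11.78 and 11.75 with Ad-Cre and 11.65, 11.58 and 11.62 with Ad-eGFP. Every Ad-Cre value lay above every Ad-eGFP value, by a small margin. The log2 change of 0.17 ± 0.07 (SE) had an adjusted p of 0.124 (limma), and *Bax* was not called. *Bak1*, whose product sits in the mitochondrial membrane already in healthy cells, read 6.19, 6.23 and 5.90 with Ad-Cre and 5.75, 5.47 and 5.63 with Ad-eGFP on its 1 probe. The groups did not overlap, and Ad-Cre replicate 3 lay nearest to the controls. *Bak1* rose by 0.49 ± 0.12 (log2, SE; adjusted p = 0.0237, limma). The probe was dim, with raw signals of 140 to 174. Its call was lost without Ad-Cre replicate 1 (adjusted p = 0.0684), Ad-Cre replicate 2 (0.0774), Ad-eGFP replicate 2 (0.0794) or Ad-eGFP replicate 3 (0.0729), and over all alternatives its adjusted p ran from 0.00416 to 0.106. *Bak1* was also not called without background correction, where its log2 change was 0.19, with a larger offset, where it was 0.10, or by an unmoderated test with equal variances. *Bax*, in contrast, was called by that test (adjusted p = 0.0460) and with the larger offset (0.0202), within a range of 0.0202 to 0.297 over its alternatives.

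Among the BH3-only genes, *Bbc3* stood out. Its product PUMA binds all the guardians and is a classical p53 target, and the array carried 3 probes for it, all tested. Probe 450615, the brightest, read 11.18, 11.20 and 11.46 with Ad-Cre and 10.49, 10.42 and 10.48 with Ad-eGFP. The Ad-Cre arrays were all clearly above the controls, and replicate 3 was the highest of them. *Bbc3* rose by 0.82 ± 0.10 on this probe (log2, SE; 1.76-fold; adjusted p = 0.00183, limma), and 3.26% of all tested probes had a larger change in either direction. Probe 2320195 read 6.65, 6.65 and 6.76 with Ad-Cre and 6.12, 5.77 and 5.78 with Ad-eGFP. Again the groups did not overlap, and its rise of 0.80 ± 0.11 (adjusted p = 0.00347, limma) was of like size on this dimmer probe. That likeness holds only with the background correction used: without it the changes of probes 450615 and 2320195 were 0.78 and 0.35, and with a larger offset 0.72 and 0.19, both still called. Probe 3360468 read 6.47, 5.95 and 6.31 with Ad-Cre and 5.87, 5.36 and 6.11 with Ad-eGFP. Here the groups overlapped, the probe was detected on 3 Ad-Cre and 2 Ad-eGFP arrays, and its log2 change of 0.46 ± 0.21 did not pass (adjusted p = 0.160, limma). The calls of probes 450615 and 2320195 held without each array in turn, and without Ad-Cre replicate 3 the changes were 0.72 and 0.76. An exact permutation test gives each of them 0.1, the smallest two-sided p that 3 arrays against 3 allow.

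*Pmaip1*, which encodes NOXA, a p53-induced protein that binds mainly MCL1, had 3 probes, of which 1 was tested. Probe 5130367 read 6.33, 6.44 and 7.001 with Ad-Cre and 6.40, 6.17 and 6.29 with Ad-eGFP. Only Ad-Cre replicate 3 lay well above the rest. The log2 change of 0.30 ± 0.18 (adjusted p = 0.258, limma) did not pass, and without Ad-Cre replicate 3 it was 0.10. *Bid*, whose product is cut by caspase-8 and links death receptors to the mitochondria, read 9.45, 9.35 and 9.12 with Ad-Cre and 9.14, 9.06 and 9.10 with Ad-eGFP on probe 5700575. Ad-Cre replicates 1 and 2 lay above all controls and replicate 3 lay among them. The log2 change was 0.21 ± 0.10 with an adjusted p of 0.170 (limma). Without Ad-Cre replicate 3 it was 0.30 with an adjusted p of 0.0250, and with array weights 0.26 with an adjusted p of 0.0289, within a range of 0.0250 to 0.374 over all alternatives. The second *Bid* probe and the other *Pmaip1* probes were detected on no array.

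*Bcl2l11* encodes BIM, which is induced by loss of growth factors and binds all the guardians, and 3 of its 4 probes were tested. Probe 5820168, the brightest, read 9.30, 9.18 and 9.16 with Ad-Cre and 9.37, 9.47 and 9.41 with Ad-eGFP. All Ad-Cre values lay below all Ad-eGFP values, the opposite order to *Bbc3*. The log2 change of -0.20 ± 0.08 had an adjusted p of 0.0967 (limma) and was not called. It was called with a larger offset (adjusted p = 0.0344) and with array weights (0.0420), within a range of 0.0344 to 0.257 over its alternatives. Probe 1780735 read 6.92, 6.95 and 6.97 with Ad-Cre and 6.95, 6.90 and 6.71 with Ad-eGFP. Its log2 change of 0.09 ± 0.08 did not pass (adjusted p = 0.473, limma). That change ran from 0.02 without Ad-eGFP replicate 3 to 0.14 without Ad-eGFP replicate 1. Probe 2360689 was detected on 3 Ad-Cre arrays and 1 Ad-eGFP array and had a log2 change of 0.25 ± 0.15 (adjusted p = 0.265), which was 0.09 without Ad-Cre replicate 3. The probes of *Bcl2l11* thus differed in sign, and with all arrays weighted equally and the offset used none passed. Over the 4 BH3-only genes, 2 of 8 tested probes were called, both of them *Bbc3*, a share of 25.0% that is near the 22.9% of all tested probes. None was called lower, where limma gave 1 lower and 2 higher at an unadjusted p under 0.05, and the median log2 change was 0.28.

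*Bcl2*, the guardian first found at a chromosomal breakpoint in lymphoma, had 8 probes, of which 4 were tested and 4 were detected on no array. Probe 1400168, the brightest, read 7.65, 7.46 and 7.70 with Ad-Cre and 7.999, 8.06 and 8.01 with Ad-eGFP. The Ad-eGFP values lay close together, and all Ad-Cre values were below them. *Bcl2* fell by 0.42 on this probe (log2, SE 0.09; 1.34-fold; adjusted p = 0.0142, limma). Probe 3520020 read 7.04, 6.97 and 6.89 with Ad-Cre and 7.39, 7.31 and 7.45 with Ad-eGFP. It too showed no overlap, and fell by 0.42 (log2, SE 0.08; adjusted p = 0.0105, limma). The remaining tested probes did not pass. Probe 5570358 had a log2 change of -0.26 ± 0.17 (adjusted p = 0.315), which ran from -0.14 without Ad-Cre replicate 1 to -0.42 without Ad-eGFP replicate 3, and probe 6420612 one of -0.05 ± 0.12 (adjusted p = 0.797), both with overlapping groups. Without Ad-eGFP replicate 3 neither probe of *Bcl2* was called any longer (adjusted p = 0.0539 for 1400168 and 0.0503 for 3520020), and without Ad-eGFP replicate 2 probe 1400168 was not called (adjusted p = 0.0565). Over all alternatives the adjusted p ran from 0.00316 to 0.0565 and from 0.00414 to 0.0503. Without Ad-Cre replicate 3 both stayed called, with log2 changes of -0.47 and -0.38. Both were also called with a larger offset, with smaller changes of -0.20 and -0.16, and without background correction the change of probe 3520020 was -0.25.

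*Bcl2l1* gave the widest spread in the family. Its main product BCL-XL protects mitochondria in many somatic cells, and all 3 probes were tested. Probe 1240546 read 10.20, 10.15 and 9.48 with Ad-Cre and 9.86, 9.68 and 9.68 with Ad-eGFP. Probe 7510608 read 8.78, 8.60 and 7.83 with Ad-Cre and 8.17, 8.39 and 8.05 with Ad-eGFP. Probe 4670463 read 8.78, 8.46 and 7.70 with Ad-Cre and 8.15, 8.16 and 8.33 with Ad-eGFP. On each of these probes Ad-Cre replicates 1 and 2 lay above all the controls and Ad-Cre replicate 3 lay below all of them. The standard deviations of the Ad-Cre values were 0.40, 0.50 and 0.55, and only 2.97%, 0.724% and 0.408% of all tested probes spread more within that group. With all 6 arrays the log2 changes were 0.20 ± 0.19, 0.20 ± 0.24 and 0.10 ± 0.25, and no adjusted p was below 0.480. Without Ad-Cre replicate 3 the changes were 0.43, 0.49 and 0.41 with adjusted p of 0.0169, 0.0353 and 0.0528 (limma), each the lowest over its alternatives. The highest over the alternatives were 0.820, 0.975 and 0.964. Without Ad-Cre replicate 1 the change of probe 4670463 had the opposite sign (-0.13), whereas the other probes of *Bcl2l1* kept theirs in every fit.

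*Mcl1* encodes a short-lived guardian that is lost quickly when protein synthesis stops. Its 1 probe read 12.38, 12.35 and 12.57 with Ad-Cre and 12.45, 12.33 and 12.34 with Ad-eGFP. The groups overlapped, with Ad-Cre replicate 3 the highest. The log2 change was 0.06 ± 0.09 (adjusted p = 0.683, limma), with a 95% confidence interval from -0.15 to 0.26, and without Ad-Cre replicate 3 its sign turned (-0.01). For *Bcl2l2*, which encodes BCL-W, 2 of 5 probes were tested. Probe 5080338 read 12.03, 12.03 and 12.01 with Ad-Cre and 11.96, 12.05 and 12.00 with Ad-eGFP. Its Ad-Cre values lay within the range of the controls, and 99.3% of all tested probes spread more among the Ad-Cre arrays. The log2 change was 0.02 ± 0.07 with a 95% confidence interval from -0.14 to 0.18 (adjusted p = 0.852, limma). Probe 4780653 read 11.12, 10.83 and 11.02 with Ad-Cre and 10.76, 10.73 and 10.82 with Ad-eGFP. These groups did not overlap, but the log2 change of 0.22 ± 0.09 did not pass (adjusted p = 0.136). Over the 4 guardians 2 of 10 tested probes were called, both *Bcl2* and both lower, beside 22.9% of all tested probes called and 12.2% called lower, and the median log2 change was 0.04. This share too is near the background. None was called higher, where limma gave 1 higher at an unadjusted p under 0.05, the *Bcl2l2* probe 4780653.

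Not tested were 11 probes, which belonged to *Pmaip1*, *Bid*, *Bcl2l11*, *Bcl2* and *Bcl2l2*. Of these, 9 were detected on no array, and no fold change is given for any of them. When the log2 values of all tested probes of a gene were averaged, *Bbc3* rose by 0.69 ± 0.11 (adjusted p = 0.00508), *Bak1* rose by 0.49 ± 0.11 (adjusted p = 0.0211) and *Bcl2* fell by 0.29 (SE 0.07; adjusted p = 0.0252), and the other 7 genes did not pass.

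Promoters of the family were read from the RefSeq table of mouse build GRCm38.p6, which gives 250 bases before to 50 after each listed start. It held 14 windows for 9 of the genes; *Pmaip1* had no entry. The motifs searched on both strands were the p53 half-site, CTTTGA, the core letters bound by the TCF and LEF partners of CTNNB1, and GGGCGG, the GC box. Only exact matches were counted, for the p53 half-site to the pattern RRRCWWGYYY (R is A or G, W is A or T, Y is C or T). *Bax* alone held an exact p53 half-site, found in 8.36% of all 32851 windows, and *Bax* alone held CTTTGA, found in 16% of them. The matches overlapped. GGGCGG was present in 10 of the 14 windows and 7 of the 9 genes, and in 35.7% of all windows. It occurred 5 times in the most upstream window of *Bbc3* and 7 times in that of *Bcl2*, which moved in opposite directions, and not at all in that of *Bak1*. The 100 bases before the start are shown for these genes, with GGGCGG or its complement CCGCCC in capitals, and for *Bax* the 60 bases around its match, with the p53 half-site and the overlapping CTTTGA in capitals. The stretches lie at chr7:16309483-16309582 on the + strand (*Bbc3*), chr17:27028628-27028727 on the - strand (*Bak1*), chr1:106714291-106714390 on the - strand (*Bcl2*) and chr7:45467069-45467128 on the - strand (*Bax*). A match describes letters and not a bound site, and binding was not measured. A window without a match, such as those of *Bbc3* for p53, may still hold sites that differ from the pattern in some letters.
Bbc3: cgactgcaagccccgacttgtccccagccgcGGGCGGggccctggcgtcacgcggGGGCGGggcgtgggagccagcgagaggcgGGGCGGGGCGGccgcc
Bak1: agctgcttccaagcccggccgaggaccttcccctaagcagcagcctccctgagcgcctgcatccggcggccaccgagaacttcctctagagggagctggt
Bcl2: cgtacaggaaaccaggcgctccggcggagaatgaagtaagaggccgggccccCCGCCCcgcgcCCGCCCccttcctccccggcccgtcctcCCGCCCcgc
Bax: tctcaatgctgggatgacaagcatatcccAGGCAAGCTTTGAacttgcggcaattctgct

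The genes around the family were taken from lists, each gene by its brightest tested probe, and their counts are to be read beside the 22.9% of all tested probes that were called, 10.7% higher and 12.2% lower. Among 11 tested other BCL2 family genes, such as *Bad*, *Bok* and *Bmf*, 1 was called, lower, and the median log2 change was -0.03. That gene was *Bik*, a BH3-only gene first named for a killer that interacts with BCL2. It read 8.83, 8.72 and 8.64 with Ad-Cre and 9.74, 9.71 and 9.62 with Ad-eGFP. The groups lay far apart, and *Bik* fell by 0.96 (log2, SE 0.08, adjusted p = 0.000523, limma). In this fit that was a larger change than that of any tested probe of the 10 genes. With a larger offset the order turned, with log2 changes of -0.68 for *Bik* and 0.72 for *Bbc3* probe 450615. The BH3-only genes *Bbc3* and *Bik* therefore moved in opposite directions. None of the 11 was called higher, where limma gave 1 at an unadjusted p under 0.05.

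Of the other genes of the mitochondrial death pathway, among them channels, caspases and their activators, 14 were tested and 2 were called, both lower, with a median log2 change of 0.00. *Vdac3*, a channel of the outer membrane, read 12.64, 12.80 and 12.77 with Ad-Cre and 13.48, 13.22 and 13.21 with Ad-eGFP, and fell by 0.56 (log2, SE 0.10; adjusted p = 0.00833, limma). *Casp9*, the caspase activated on the apoptosome, read 10.14, 9.99 and 10.11 with Ad-Cre and 10.45, 10.46 and 10.59 with Ad-eGFP, and fell by 0.42 (log2, SE 0.08; adjusted p = 0.0112). Neither gene's groups overlapped. Without Ad-eGFP replicate 3 *Casp9* was not called (adjusted p = 0.0511, the highest over its alternatives). None was called higher, where limma gave 2 at an unadjusted p under 0.05.

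Inhibitor of apoptosis proteins block caspases or mark their partners for degradation, and 4 of the 10 listed genes were tested. *Birc2*, which encodes cIAP1, read 12.04, 12.03 and 12.25 with Ad-Cre and 13.03, 12.95 and 12.90 with Ad-eGFP. Its groups did not overlap, and it fell by 0.85 (log2, SE 0.09; adjusted p = 0.00117, limma), with all 3 of its probes called lower. *Birc2* is on the study's own list of changed genes from these arrays, so that its fall is not independent evidence. *Birc5* (-0.10 ± 0.08, adjusted p = 0.394) and *Naip2* (0.01 ± 0.17, adjusted p = 0.986) did not pass (limma). Nor did *Birc6* (adjusted p = 0.532), which was detected on 1 Ad-Cre and 2 Ad-eGFP arrays and is given no fold. The change of *Birc5* ran from -0.05 without Ad-Cre replicate 3 to -0.15 without Ad-Cre replicate 1.

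Upstream regulators of the family numbered 16 tested genes, with 1 higher, 3 lower and a median log2 change of -0.03, a share of called genes near the background of 22.9%. *Usp9x*, which removes ubiquitin from MCL1, read 7.33, 7.78 and 7.10 with Ad-Cre and 7.91, 8.24 and 8.28 with Ad-eGFP, and fell by 0.74 (log2, SE 0.18; adjusted p = 0.0279, limma), with 1 of its 2 tested probes called. *Fbxw7*, the receptor of a ligase that marks MCL1 for degradation, read 10.29, 10.50 and 10.21 with Ad-Cre and 9.75, 9.97 and 9.85 with Ad-eGFP, and rose by 0.48 ± 0.10 (adjusted p = 0.0175), again with 1 of 2 tested probes called. *Foxo1*, a transcription factor that can induce *Bcl2l11* and *Bbc3*, read 8.29, 8.43 and 8.29 with Ad-Cre and 8.62, 8.91 and 8.80 with Ad-eGFP, and fell by 0.44 (log2, SE 0.10; adjusted p = 0.0190). The values of these 3 genes did not overlap between groups, yet each call was lost in some fits without 1 array. Each call was also lost by an unmoderated test with equal variances (adjusted p = 0.117 for *Usp9x*, 0.0644 for *Fbxw7* and 0.0615 for *Foxo1*). *Usp9x* was not called without Ad-Cre replicate 1 (adjusted p = 0.0766), Ad-Cre replicate 3 (0.0560), Ad-eGFP replicate 2 (0.0860) or Ad-eGFP replicate 3 (0.0941), within a range of 0.00438 to 0.117. *Fbxw7* was not called without Ad-Cre replicate 2 (0.0508), Ad-eGFP replicate 1 (0.0615) or Ad-eGFP replicate 3 (0.0626), within a range of 0.00214 to 0.0644. *Foxo1* was not called without Ad-Cre replicate 1 (0.0560), Ad-eGFP replicate 2 (0.0668) or Ad-eGFP replicate 3 (0.0712), within a range of 0.00453 to 0.0712. With a larger offset the changes of *Usp9x* and *Foxo1* were -0.35 and -0.27, both called. The related *Foxo3*, named after its value was seen, was the other gene called lower (-0.42, adjusted p = 0.0468, limma), close to the threshold. It read 8.36, 8.41 and 8.002 with Ad-Cre and 8.57, 8.72 and 8.74 with Ad-eGFP on the only tested probe of its 3. No fit without 1 array is given for *Foxo3*. *Trp53*, which encodes p53, read 11.19, 11.09 and 10.97 with Ad-Cre and 10.92, 10.91 and 10.94 with Ad-eGFP, a log2 change of 0.16 ± 0.08 that did not pass (adjusted p = 0.198).

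The list of other p53 targets linked to death held 12 tested genes, of which 6 were higher and 1 was lower, beside 10.7% and 12.2% of all tested probes, with a median log2 change of 0.51 beside 0.00 for all tested probes. *Fas*, the death receptor, read 9.93, 9.92 and 10.30 with Ad-Cre and 9.23, 9.15 and 9.02 with Ad-eGFP, and rose by 0.92 ± 0.12 (adjusted p = 0.00284, limma). *Aen*, an exonuclease of apoptotic cells, read 7.23, 7.34 and 7.45 with Ad-Cre and 6.51, 6.46 and 6.45 with Ad-eGFP, and rose by 0.86 ± 0.08 (adjusted p = 0.000845). Only 1 of the 3 tested *Aen* probes was called, and its change was 0.48 without background correction and 0.29 with a larger offset. *Phlda3*, an inhibitor of AKT, read 12.60, 12.58 and 12.53 with Ad-Cre and 11.91, 11.88 and 11.84 with Ad-eGFP, and rose by 0.69 ± 0.07 (adjusted p = 0.00104). *Fas*, *Aen* and *Phlda3* were chosen as the 3 largest called changes of the list, so that their rise beside that of *Bbc3* is not separate evidence. Of the 12 tested genes 5 were not called. *Zmat3*, *Trp53inp1* and *Ddit4* were also called higher, and *Siva1* was called lower, all named after their values were seen. *Phlda3* and *Ddit4* are on the study's own list from these arrays, so that their rise is not independent evidence. Activity of p53 was not measured.

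**Figure D2:**
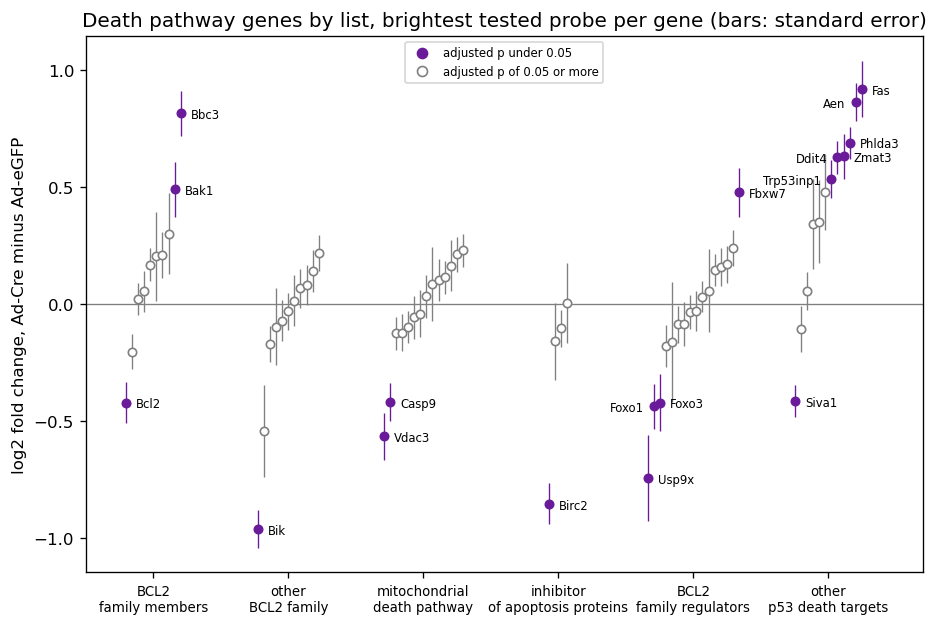
Each point is 1 gene, by its brightest tested probe: the log2 fold change of Ad-Cre over Ad-eGFP (y axis, log2 units) with its standard error as a bar, grouped by list (x axis). Filled and named points have an adjusted p under 0.05; *Bbc3* at 0.82 and *Bik* at -0.96 lie at opposite ends among the BCL2 family genes.

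Cell type markers were read beside these results. The brightest probe of each list is named for its signal only, since signals of different probes do not rank the amounts of their transcripts. All 12 Sertoli cell markers were tested, and *Cldn11* had the brightest probe, at 15.72, 15.62 and 15.50 with Ad-Cre and 15.32, 15.50 and 15.63 with Ad-eGFP. All of them except *Amh* were detected on all 6 arrays. With Ad-Cre 6 of them were lower and 0 higher (limma; 7 lower and 1 higher at an unadjusted p under 0.05), with a median log2 change of -0.40. The markers called lower were *Sox9* (-0.57), *Wt1* (-0.66), *Dhh* (-0.50), *Clu* (-0.38), *Fshr* (-1.46) and *Amh*. For *Amh*, detected on only 1 Ad-Cre array, no fold is given; it read 5.89, 5.37 and 5.07 with Ad-Cre and 6.77, 6.63 and 6.40 with Ad-eGFP. *Gata4* (-0.26), *Rhox5* (-0.27), *Inhbb* (0.18) and *Trf* (0.06) did not pass. *Sox9* and *Wt1* are on the study's own list from these arrays and are not independent evidence. The summed linear intensity of the Sertoli markers was 123237, 119772 and 114900 with Ad-Cre and 138609, 139326 and 145185 with Ad-eGFP. It was lower on every Ad-Cre array. The sum weighs the brightest probes most, and *Cldn11*, the brightest, was not called (log2 change 0.13).

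Of 12 germ cell markers 8 were tested and none was called in either direction by its brightest probe (limma; also none at an unadjusted p under 0.05), although another probe of *Dazl* was called lower, with *Uchl1* the brightest and *Sycp3*, *Stra8*, *Zbtb16* and *Prm1* undetected. Their summed intensity was 9216, 8659 and 9740 with Ad-Cre and 9563, 9617 and 8999 with Ad-eGFP, overlapping between groups. Of 6 Leydig cell markers only *Cyp11a1* and *Star* were tested and neither was called (limma; 1 lower at an unadjusted p under 0.05), although another probe of *Cyp11a1* was called higher, whereas *Cyp17a1*, *Hsd3b1*, *Insl3* and *Lhcgr* were undetected. Their sum was 474, 407 and 421 with Ad-Cre and 509, 492 and 509 with Ad-eGFP, lower on every Ad-Cre array. Of 6 peritubular myoid cell markers 5 were tested and none was called (limma; 2 higher at an unadjusted p under 0.05), with *Acta2* the brightest and *Cnn1* undetected. Their sum was 24873, 24456 and 21047 with Ad-Cre and 21736, 20008 and 20703 with Ad-eGFP. Of 8 macrophage markers 6 were tested, with *Lyz2* the brightest and called lower (-0.35) on 1 of its 2 tested probes and *Ptprc* and *Itgam* undetected. *Csf1r* was called higher and was detected on no Ad-eGFP array, so that its rise is given as at least 1.54-fold. The macrophage sum was 2865, 2650 and 2602 with Ad-Cre and 3373, 3050 and 3520 with Ad-eGFP, again lower on every Ad-Cre array. Most of that sum is the 1 probe of *Lyz2*, and the median log2 change of the 6 markers was -0.04. The part of cell composition in the changes of *Bbc3*, *Bak1* and *Bcl2* was not tested.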

How the data were processed

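The deposited table holds the raw intensity of each probe on each array, neither background-subtracted nor normalized, with a detection p-value against the negative-control beads, which the authors also deposited, and the bead number. The deposited bead number served as the depth of a signal. The 6 columns of bead SD were not used. The authors' comparison table, with group means, variances, fold changes, T statistics and p-values, was not used. It was made in FlexArray with a normalization not given in the sources used here. The series text names a MouseRef-6 array, and the table header names a WG-6 array.

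Groups and replicate numbers came from the sample titles. In R 4.3.3 with limma 3.58.1, the intensities were corrected by normexp, with the controls' level inferred from the detection p-values, given an offset of 16, quantile-normalized and put on the log2 scale. The 20855 probes detected (p under 0.05) on at least 3 of 6 arrays were compared between treatments by lmFit and eBayes. No covariate was used, tests were two-sided, and the Benjamini-Hochberg adjustment ran over all of these probes. Exact permutation tests were run beside this. A fold against a group without detection is a bound, taken against the lowest detected signal of each array or the probe's own signal if higher. The fit was tested on simulated data.

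The members, lists and tests were chosen with earlier results of these data known. Named were all 10 members with every probe, the 3 largest called changes of each of 5 pathway lists (all tested genes for the inhibitors of apoptosis), eGFP and *Ctnnb1*, the Sertoli markers and the marker with the brightest probe for other cell types. A few further genes were named once their values had been seen, among them undetected markers and *Trp53*. Symbols of list genes were matched to RefSeq (GRCm38.p6) names, 120 of 122 of them, 19 by synonym. Some genes of the lists are not reported here by name. Promoter sequences are RefSeq's. Alternatives were other background corrections, scaling, filters, tests and weights, a replicate block, the mean of a gene's probes and leaving out each array.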

Additional observations from a re-analysis of the deposited data

How the results depend on the processing

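Single probes of the 10 genes gave 275 values over the alternatives, of which 252 kept direction and side of the threshold, 10 were no longer called, 9 became called and 4 changed sign. The 13 other named genes gave 180 values, of which 163 were kept, 14 were no longer called and 3 changed sign. Probes detected on too few arrays gave no value under the strict filter. Sign changes concerned uncalled values only: *Bcl2* probe 6420612 (0.025 when Ad-Cre replicate 1 was left out and 0.067 when Ad-eGFP replicate 3 was; range without 1 array -0.12 to 0.067), *Bcl2l1* probe 4670463 without Ad-Cre replicate 1 (range -0.13 to 0.41), *Mcl1* without Ad-Cre replicate 3 (range -0.012 to 0.099), and *Naip2* without Ad-Cre replicate 1 (-0.061), Ad-Cre replicate 2 (-0.098) or Ad-eGFP replicate 1 (range -0.12 to 0.18). The calls of *Bbc3* probes 450615 and 2320195 held under every alternative that tested them.

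The count of called BCL2 family probes, 5, was 3 with a detection p under 0.01 on all 6 arrays, which tests fewer probes, and 2 to 8 without 1 array. The count of called genes, 3, was 5 with array weights and 1 to 5 without 1 array. All called probes, 4774 (22.9%), numbered 7082 (34%) with array weights and 2483 to 5669 without 1 array. Probes past the methods' thresholds, 2, were 1 without background correction, 1 with the larger offset and 1 with the strict filter, and 2 to 3 without 1 array. The 15 called pathway genes were 23 with array weights, beside those 34% of all probes, and 10 to 17 without 1 array. The cause of these shifts was not tested.

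Replicate numbers were shared across groups, but deviations from the group means correlated by only 0.157, 0.0554 and 0.0413 for numbers 1, 2 and 3, so that the fit was not paired. With a replicate block 6 family probes, 3 genes, 2 probes past the methods' thresholds, 15 pathway genes and 4162 probes in all were called. The added family probe was *Bbc3* 3360468 (adjusted p = 0.0424). Signal over background limits *Bak1*, *Pmaip1* and the dimmer probes of *Bbc3*, *Bcl2l11* and *Bcl2*.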
